A study of Mus musculus with 2 samples.

Results

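Fibronectin and the matricellular glycoproteins form a set of 10 genes, Fn1, Thbs1, Thbs2, Tnc, Postn, Sparc, Sparcl1, Spp1, Flrt2 and Emilin1, which were chosen by name from the 36458 gene symbols with a value. Their RNA was measured by RNA-seq in hepatic stromal cells of adult male C57/Bl6 mice that had received carbon tetrachloride (CCl4), a hepatotoxin that causes liver fibrosis, for 5 weeks. The control cells came from Foxf1 fl/fl littermates, in which both alleles of the forkhead transcription factor gene carry LoxP sites. The knockout cells came from αSMACreER;Foxf1 fl/fl mice, which also carry a tamoxifen-inducible Cre recombinase driven by the promoter of α-smooth muscle actin. Both genotypes therefore had the floxed alleles and the CCl4 injury, and the Cre transgene and the deletion differed between them. Tamoxifen was injected during the CCl4 course to activate the Cre, and the study describes livers of both genotypes after CCl4 and tamoxifen. The groups are those of the labels, which were not checked against the targeted gene. The question of the comparison was which genes depend on Foxf1 in these cells during fibrosis.

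The cells were those of a liver cell suspension that adhered to culture dishes in 2 hours at 37 °C, and samples were pooled into 1 library per genotype. There was no replicate, so no difference between the genotypes could be set against the variation between animals, and no test was made. The Cre is driven in cells that express α-smooth muscle actin, whereas adhesion to plastic retains several cell types. In a pooled bulk library, a change in the number of cells of one type and a change in the RNA of each cell cannot be told apart.

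Fibronectin is a dimeric glycoprotein that cells assemble into fibrils, on which collagen and other matrix proteins are deposited. Matricellular proteins are secreted into the same matrix but act mainly on cell adhesion, growth factor activity and matrix assembly, and most of them are low in resting tissue and abundant after injury. In the injured liver they are made by stellate cells (vitamin A-storing cells that become myofibroblasts), and several of them, among them fibronectin, thrombospondin 1 and osteopontin, are also made by macrophages and other cells.

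Many of these proteins are bound by integrins through the residues arginine, glycine and aspartate in succession. Codons for this tripeptide occurred in the longest coding sequence of 5 of the 10 genes, compared with 7.25% of the 21517 genes with a coding sequence and 13.1% of those encoding at least 500 residues. Fn1 held them at 2 positions, and Thbs1, Thbs2, Spp1 and Emilin1 held them once each. The stretches below are shown because these codons are what the 5 genes have in common. They are taken from the transcripts of GENCODE M21 (GRCm38), each with 12 bases on either side, and the capitals mark the 3 codons.
Fn1, chr1:71606734-71606766, minus strand, exon 30 of 46: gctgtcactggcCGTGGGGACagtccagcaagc
Fn1, chr1:71597431-71597463, minus strand, exon 40 of 46: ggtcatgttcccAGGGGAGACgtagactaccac
Thbs1, codons at chr2:118122882-118122890, plus strand, flank across an intron: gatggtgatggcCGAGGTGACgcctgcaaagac
Thbs2, codons at chr17:14671484-14671492, minus strand, flank across an intron: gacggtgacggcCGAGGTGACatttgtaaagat
Spp1, chr5:104439469-104439501, plus strand, exon 7 of 8: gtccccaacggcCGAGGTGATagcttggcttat
Emilin1, chr5:30918136-30918168, plus strand, exon 4 of 8: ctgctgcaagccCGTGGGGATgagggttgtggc
The first arginine lay at residue 1614 and at residue 2181 of 2477 in fibronectin, at 927 of 1171 in thrombospondin 1, at 928 of 1172 in thrombospondin 2, at 145 of 295 in osteopontin and at 578 of 1017 in emilin 1. Tnc, Postn, Sparc, Sparcl1 and Flrt2 did not contain these codons in succession in the transcript read. A match is a description of the letters and does not show that a site is used.

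Levels are given as FPKM (fragments mapped to a gene, per kilobase of transcript and relative to all mapped fragments), the unit of the deposited values. Of 38320 gene entries, 18112 were above 0 in the control library and 18854 in the knockout library. Depth was estimated from the spacing of low values at about 9750000 and 11250000 mapped reads. A difference is log2(FPKM + 0.1) of the knockout minus the control after the knockout values were divided by 1.02, the median ratio of 11871 genes. It understates the change of genes near 0. The approximate 95% counting intervals cover counting error only. Counts over all genes used the 12692 genes whose FPKM averaged 1 or more over the libraries.

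Spp1 had the highest level of the set in both libraries, and Thbs2 had the lowest. The 10 genes together had an FPKM of 1214 in control and 1695 in knockout cells, which was 0.172% and 0.269% of the summed FPKM of all genes. Spp1, Thbs1, Sparc and Fn1 accounted for 97.6% of this sum in either library. In control cells the order of levels was Spp1, Thbs1, Sparc, Fn1, Emilin1, Postn, Flrt2, Sparcl1, Tnc and Thbs2. Fn1 passed Sparc in knockout cells, and Tnc passed Sparcl1. Fn1 was at 0.511 times the level of Sparc in control and at 1.03 times in knockout cells, so that the pair was nearly level there. Of the whole difference in scaled FPKM between the libraries, Fn1 made up 41.3%, and Spp1 and Thbs1 made up 22.2% each.

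**Figure D1:**
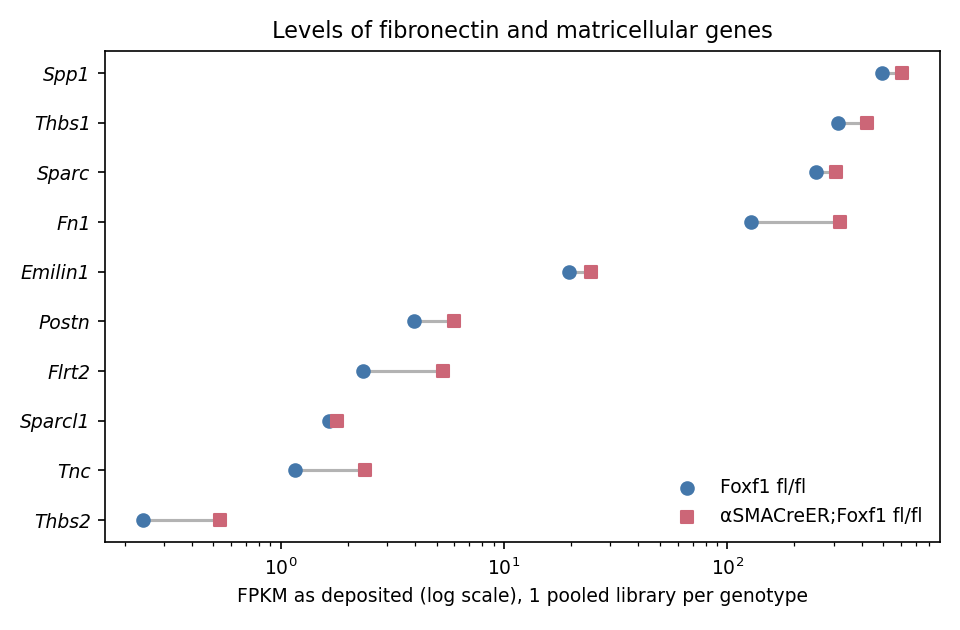
FPKM (x axis, log scale) of the 10 genes (y axis, ordered by the control level) in the Foxf1 fl/fl library (circles) and the αSMACreER;Foxf1 fl/fl library (squares), with 1 pooled library per genotype and no scaling. Spp1 is at the top in both, from 495 to 606, and each square lies to the right of its circle.

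All 10 genes had a higher value in the knockout than in the control library. The filter on low values was passed by 9 of them, and of all tested genes 50.4% were above 0. At least 1.5-fold higher were 3 of the 9 (Fn1, Flrt2 and Tnc), compared with 12.8% of all tested genes, and 0 were at least 1.5-fold lower, compared with 13.2%. At least 2-fold higher were 2 of the 9 (Fn1 and Flrt2), compared with 4.35%. The study listed Fn1 and Flrt2 by crossing these same libraries with separate FOXF1 binding data (ChIP-seq), as matrix genes bound near the transcription start. They are therefore not independent evidence of direction. The median difference was 0.40 over the 9 genes and 0.48 over all 10, compared with 0.0050 over all tested genes. The counting interval lay above 0 for 8 genes (all except Thbs2 and Sparcl1), compared with 29.4% of all tested genes.

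**Figure D2:**
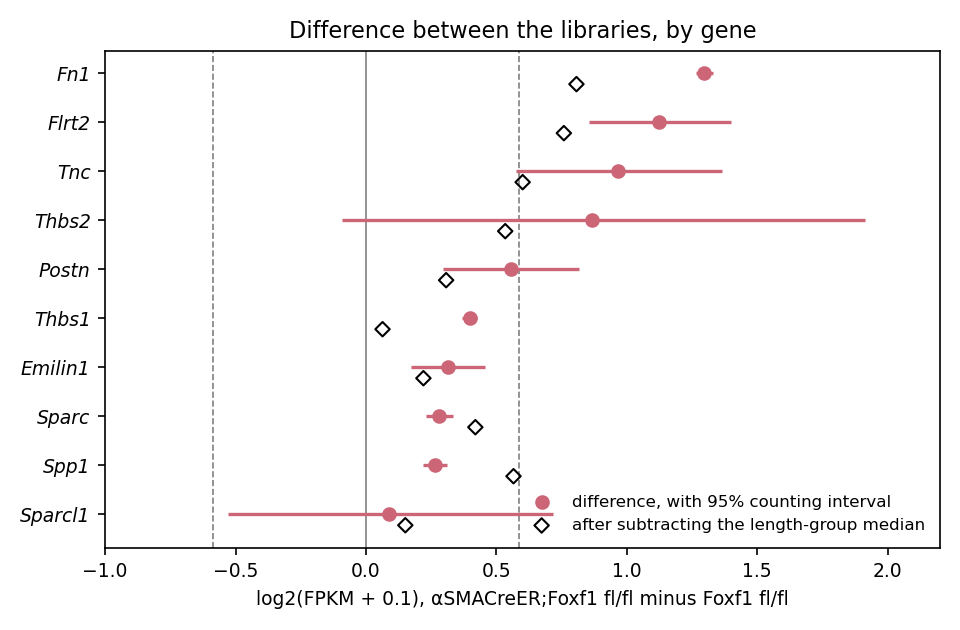
Difference in log2(FPKM + 0.1), αSMACreER;Foxf1 fl/fl minus Foxf1 fl/fl (x axis), for each gene (y axis). Filled circles are the differences with their 95% counting intervals, open diamonds are the same after subtraction of the median of genes of similar transcript length, the solid line is 0 and the dashed lines are 1.5-fold. The circles go from 0.09 for Sparcl1 to 1.30 for Fn1 and the diamonds from 0.06 for Thbs1 to 0.81 for Fn1, all above 0.

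Fn1 (ENSMUSG00000026193, chromosome 1 from 71585520 to 71653200, minus strand) encodes fibronectin, the scaffold of early scar matrix. Its FPKM was 127 in control and 319 in knockout cells. This was a 2.46-fold higher level, or 1.30 on the log2 scale (counting interval 1.26 to 1.33, about 10076 and 29114 reads). The difference ranked 314 of the 12692 tested genes. Fn1 had the fourth highest level of the set in control and the third highest in knockout cells, at 10.5% and 18.8% of the summed FPKM. The 5′ end of Fn1 overlaps a gene on the opposite strand, named Apol7d in GENCODE M21 (71652837 to 71662843), which had an FPKM of 20.8 and 124. Strandedness of the libraries is not given in the sources used here. Reads of Fn1 and Apol7d cannot be told apart where they overlap, from 71652837 to 71653200.

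The thrombospondins are trimeric or pentameric proteins that bind CD36, CD47 and integrins, and thrombospondin 1 can activate latent TGF-β. Thbs1 (ENSMUSG00000040152, chromosome 2, 118111876 to 118127133, plus strand) had an FPKM of 314 in control and 421 in knockout cells. Its difference was 0.40 (counting interval 0.37 to 0.43), below the 1.5-fold threshold and larger than counting error. Thbs2 (ENSMUSG00000023885, chromosome 17 from 14665500 to 14694235, minus strand) had an FPKM of 0.242 and 0.534, from about 13 and 34 reads. Thbs2 did not pass the filter, and its difference of 0.87 had a counting interval from -0.09 to 1.91. The closely related genes were thus at very unequal levels, with 1298 times more Thbs1 than Thbs2 in control and 790 times more in knockout cells.

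Tenascin C and periostin are matricellular proteins of wounds, and both bind fibronectin. Tnc (ENSMUSG00000028364, chromosome 4 from 63959785 to 64047015, minus strand) had an FPKM of 1.15 in control and 2.39 in knockout cells. The difference was 0.97 (counting interval 0.58 to 1.37), from about 78 and 186 reads. Postn (ENSMUSG00000027750, chromosome 3, 54361109 to 54391037, plus strand) measured 3.97 and 5.99. Its difference of 0.55 (counting interval 0.30 to 0.82) was a 1.47-fold higher level, just below the threshold. Both genes were at low levels, where 1 library of this depth gives wide intervals. Tnc overlaps the transcript 8030451A03Rik on the opposite strand, which was at 0.192 and listed at 0, and Sparcl1 likewise overlaps Gm26703, listed at 0 and at 0.0314.

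SPARC (osteonectin) binds collagen and calcium and takes part in collagen fibril assembly, and SPARC-like 1 (hevin) is its closest relative. Sparc (ENSMUSG00000018593, chromosome 11 from 55394500 to 55423183, minus strand) had an FPKM of 249 in control and 308 in knockout cells. This was a difference of 0.28 (counting interval 0.23 to 0.33). Sparcl1 (ENSMUSG00000029309, chromosome 5 from 104079111 to 104113733, minus strand) had 1.65 and 1.79. Its difference of 0.09 (counting interval -0.53 to 0.72) was within counting error at about 41 and 52 reads. Sparc was at 151 times the level of Sparcl1 in control and 172 times in knockout cells.

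Osteopontin, encoded by Spp1, is a phosphorylated secreted ligand of integrins and CD44 that is abundant in injured liver. Spp1 (ENSMUSG00000029304, chromosome 5, 104435118 to 104441050, plus strand) had an FPKM of 495 in control and 606 in knockout cells. Its difference was 0.26 (counting interval 0.22 to 0.31), and the interval overlapped that of Sparc. Spp1 was at 3.89 times the level of Fn1 in control and at 1.90 times in knockout cells. Its part of the set's summed FPKM was 40.8% and 35.7%.

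Flrt2 is a membrane-anchored protein with leucine-rich repeats and a fibronectin type III domain, whose shed ectodomain binds Unc5 receptors and latrophilins. Flrt2 (ENSMUSG00000047414, chromosome 12, 95692226 to 95785215, plus strand) had an FPKM of 2.34 in control and 5.32 in knockout cells. The level was 2.18-fold higher, or 1.12 on the log2 scale (counting interval 0.86 to 1.40, about 158 and 413 reads), and the difference ranked 430 of 12692. Emilin 1 is an elastic fibre glycoprotein that restrains the processing of TGF-β precursors. Emilin1 (ENSMUSG00000029163, chromosome 5, 30913402 to 30921277, plus strand) was at 19.5 and 24.7, a difference of 0.31 (counting interval 0.17 to 0.45).

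Differences went with transcript length over the whole data set. Among the 12692 tested genes, Spearman's rho between the difference and the longest annotated transcript was 0.45, as a description across genes that share both libraries. When the genes were divided into 20 groups by length, the median difference was -0.36 in the group of the shortest transcripts and 0.49 in the group of the longest. Fn1 (8315 bases), Tnc (7106 bases) and Flrt2 (7099 bases) had the longest transcripts of the set. In the length group of Fn1, 38.7% of genes were at least 1.5-fold higher, and in that of Tnc and Flrt2 27.4% were.

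Each of the 10 genes lay above the median of its own length group. After subtraction of that median, Fn1 had 0.81, Flrt2 had 0.76 and Tnc had 0.60. These 3 remained past 1.5-fold (0.58 on the log2 scale), Tnc only just, compared with 1268 of the 12692 tested genes. Thbs1 (5848 bases) was left with 0.06 and Postn (5223 bases) with 0.31. The values of genes with short transcripts became larger instead, to 0.57 for Spp1 (1507 bases) and 0.42 for Sparc (2300 bases). The median over the 9 tested genes was 0.42 after subtraction. These groups were by longest transcript. With groups by median transcript length instead, Fn1 had 1.12, Sparc had 0.40, Spp1 had 0.28 and Emilin1 had 0.08. The same 3 genes were past 1.5-fold there, compared with 1576 of the 12692 tested genes, and the median over the 9 genes was 0.37. The part of transcript length in these differences was not tested.

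**Figure D3:**
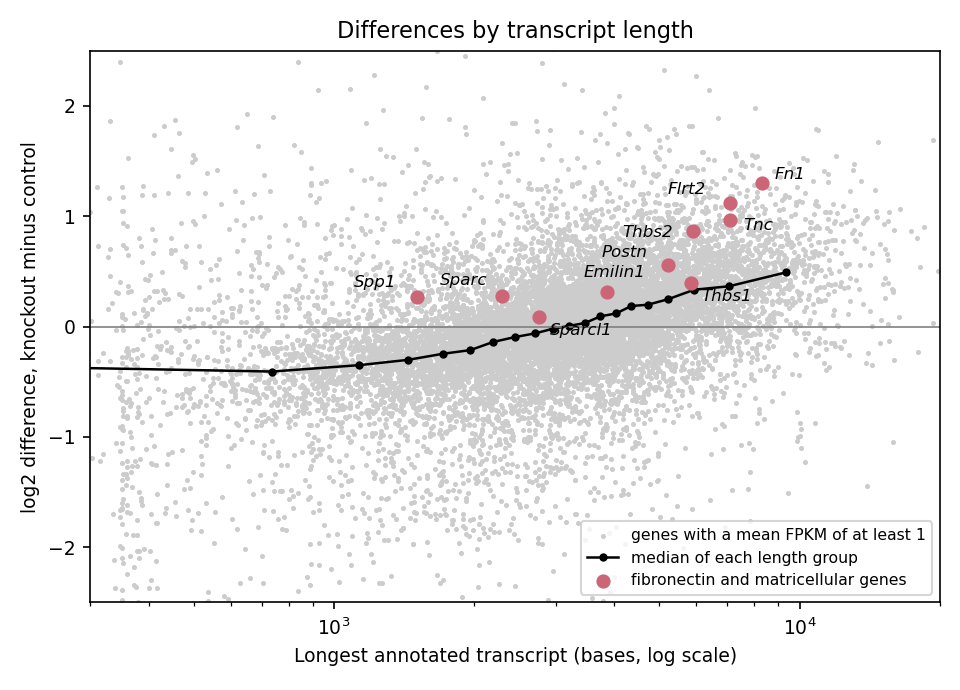
Difference in log2(FPKM + 0.1), knockout minus control (y axis), against the longest annotated transcript in bases (x axis, log scale). Grey points are the tested genes within the axes, the black line joins the medians of 20 groups by length (each at the middle of its range, the last near its lower end), and the larger points are the 10 genes of the set. The medians go from below to above 0 with length, and each of the 10 genes lies above the line.

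Promoter sequence (250 bases before the start, RefSeq, GRCm38.p6) was read for 7 of the 10 genes, and Fn1, Thbs1 and Sparcl1 had no entry. The forkhead core TGTTTA was searched on both strands because a forkhead factor was deleted. It occurred in 1 of the 7 (Sparc), compared with 12.0% of 32851 promoters of the same length. The start used for Sparc lay 3103 bases inside the GENCODE M21 interval of the gene, and that for Emilin1 lay 384 bases inside. The TATA box letters TATAAA and the AP-1 site TGACTCA were also searched on both strands. TATAAA occurred in 4 promoters, compared with 12.4% of all promoters. It lay 26 bases before the start in Postn, 126 bases before it in Tnc and 211 bases before it in Spp1. In Thbs2 it was on the opposite strand, 126 bases before the start, and reads TTTATA along the gene. TGACTCA occurred in 0 promoters, compared with 4.46%. None of the 7 promoters held more than 1 of the motifs. The promoters of Flrt2 and Tnc are shown because both genes passed 1.5-fold, with capitals for the letters TATAAA.
Flrt2, chr12:95691976-95692225, plus strand: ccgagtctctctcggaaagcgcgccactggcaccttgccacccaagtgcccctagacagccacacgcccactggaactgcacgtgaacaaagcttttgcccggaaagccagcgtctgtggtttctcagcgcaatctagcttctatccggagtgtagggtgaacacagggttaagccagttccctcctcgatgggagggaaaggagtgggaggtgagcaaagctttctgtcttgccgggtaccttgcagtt
Tnc, chr4:64047016-64047265, minus strand: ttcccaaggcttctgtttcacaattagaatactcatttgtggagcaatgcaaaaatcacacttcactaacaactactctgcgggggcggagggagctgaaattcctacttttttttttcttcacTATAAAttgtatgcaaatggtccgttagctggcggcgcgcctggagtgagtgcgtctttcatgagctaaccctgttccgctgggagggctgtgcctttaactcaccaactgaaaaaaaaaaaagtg
The Flrt2 window held none of the 3 motifs and the Tnc window held TATAAA. The absence of these letters from a window says nothing of binding by a factor, and the study's binding data were not used here.

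Receptors for these proteins had a median difference of 0.05, beside 0.40 for the set itself. The filter left 18 of the 23 listed, with 1 at least 1.5-fold higher and 1 lower. After subtraction of the length-group medians, the receptor median was -0.14, with 0 higher and 4 lower, beside 0.42 for the set. Of all 12692 tested genes, 1268 were higher and 1411 were lower after this subtraction. With groups by median transcript length instead, 1 receptor was higher and 1 was lower, as before subtraction. Over all tested genes, 1576 were higher and 1455 were lower with these groups. Itga4, the α4 integrin chain that binds a variant segment of fibronectin, had an FPKM of 7.16 in control and 14.9 in knockout cells, a difference of 1.02 (counting interval 0.89 to 1.15), and 0.53 after subtraction of its length group's median. Adgrl1, a latrophilin that binds Flrt proteins, had 4.80 and 2.86, a difference of -0.75 (counting interval -0.99 to -0.52). The following receptors were chosen after their values were seen. Itga5 and Itgb1, which pair as the main fibronectin receptor, had differences of 0.02 (FPKM 103 and 107) and 0.13 (FPKM 146 and 163). Itgav and Itgb3, which pair as a receptor for the arginine-glycine-aspartate motif, had 0.26 and 0.32, and Cd44 had 0.32 (FPKM 204 and 260). The length subtraction by longest transcript turned the direction of Itga5 (-0.16), Itgav (-0.11), Itgb3 (-0.01) and Cd44 (-0.01), and Itgb1 was left with 0.04. Unc5c and Unc5d, of the family that binds Flrt2, were listed at 0 in both libraries, and Unc5b had an FPKM of 3.89 and 4.03.

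Relatives of the 10 genes were mostly absent or low. The filter left 9 of the 23 listed, of which 3 were past 1.5-fold in the upward and 1 in the downward direction, with a median of 0.36 (0.24 after the length subtraction). Spock2 (0.657 and 1.41, a difference of 0.97), Smoc2 (1.12 and 1.96, 0.74) and Fstl1 (18.1 and 30.5, 0.73) were higher, and all belong to the SPARC family. Smoc1, of the same family, was lower (1.87 and 0.782, -1.18). The counting intervals were 0.36 to 1.61 for Spock2, 0.18 to 1.31 for Smoc2 and 0.59 to 0.87 for Fstl1. For Smoc1 the interval was -1.88 to -0.52. With a pseudocount of 1, 1 relative was higher by 1.5-fold and 1 was lower. The bone-type relatives of osteopontin, Ibsp, Dmp1, Mepe and Dspp, were listed at 0 in both libraries (chosen after their values were seen).

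Other matricellular and adhesive glycoproteins went in either direction. With 10 of 14 listed genes tested, 1 was higher by 1.5-fold and 1 was lower, and the median was 0.14 (0.16 after the length subtraction). Ccn4, a matricellular target of Wnt signalling, had an FPKM of 2.13 in control and 3.91 in knockout cells, a difference of 0.82 (counting interval 0.47 to 1.17), and 0.57 after the length subtraction. Vtn, encoding vitronectin, an adhesive plasma protein made by hepatocytes, had 97.4 and 30.4, a difference of -1.70 (counting interval -1.85 to -1.56). Hepatocyte markers moved with Vtn, as 11 of the 11 tested (12 listed) were lower by at least 1.5-fold, with a median of -1.36 (-1.18 after the length subtraction), and their part in its difference was not tested. Of 9 modifying enzymes (transglutaminase 2, a kinase and proteases that act on these proteins), 7 were tested. Of these, 0 lay past 1.5-fold in either direction, and the median was 0.01 (-0.05 after the length subtraction). Over the 4 lists, 5 of 44 tested genes were higher and 3 were lower, with a median of 0.11 (-0.02 after the length subtraction), beside the 12.8% and 13.2% of all tested genes.

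**Figure D4:**
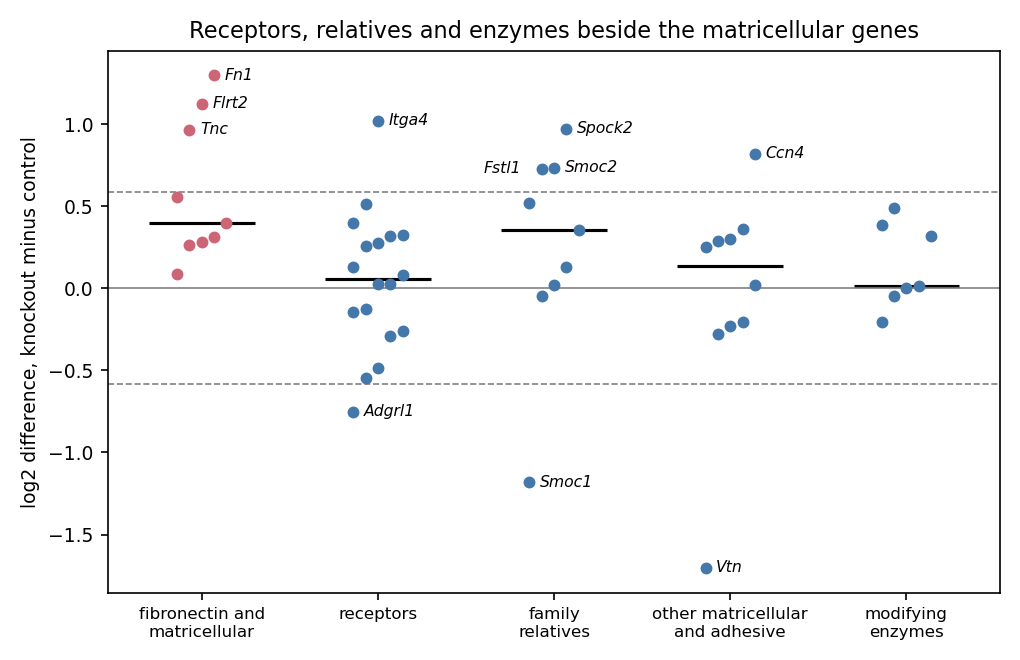
Difference in log2(FPKM + 0.1), knockout minus control (y axis), of each tested gene (points) in the set and in 4 related lists (x axis). Black bars are medians, from 0.01 for the modifying enzymes to 0.40 for the set, and dashed lines are 1.5-fold, with the genes beyond them named.

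The cells are labelled stromal, and the study reports Des and Acta2 in them and no markers of hepatocytes or Kupffer cells. The libraries held markers of several liver cell types, hepatocytes and Kupffer cells among them. Of 18 stellate cell and myofibroblast markers, 13 were tested, with 2 higher by 1.5-fold, 0 lower and a median of 0.42 (0.21 after the length subtraction), and their summed FPKM was 441 in control and 634 in knockout cells. Most of this sum came from 4 matrix genes (Dcn, Col1a1, Col1a2 and Col3a1, separated after their values were seen), with 414 and 605, and the other 14 markers summed to 27.0 and 29.3. Des had 1.70 and 3.29, Acta2 had 7.77 and 5.65, Pdgfrb had 1.03 and 1.43, and Gfap was listed at 0 in both. Kupffer cell and macrophage markers summed to 13764 and 11798 (12 of 12 tested, 0 higher and 1 lower, a median of -0.33 and of -0.07 after the length subtraction, with Adgre1 at 162 and 165, Clec4f at 1117 and 753, and Cd68 at 646 and 679). Monocyte-derived macrophage markers summed to 2549 and 2488 (8 of 8 tested, 1 higher and 0 lower, 6 above 0 with a median of 0.26 before and after the length subtraction, with Trem2 at 91.1 and 94.7, Gpnmb at 172 and 243, and Cd9 at 199 and 197). Hepatocyte markers summed to 4004 and 1531, with Alb at 2292 and 912, Ttr at 322 and 86.8, and Apoa1 at 261 and 84.2. Endothelial markers summed to 854 and 865 (10 of 10 tested, 1 higher and 0 lower, a median of 0.18 and of 0.01 after the length subtraction, with Pecam1 at 93.3 and 96.6, Stab2 at 64.0 and 85.9, and Lyve1 at 66.1 and 77.3). Cholangiocyte markers summed to 58.4 and 49.9 (4 of 6 tested, 0 higher and 1 lower, a median of 0.0040 and of 0.10 after the length subtraction, with Krt19 at 39.7 and 29.5, Krt7 at 4.91 and 6.91, and Epcam at 8.38 and 5.65). Megakaryocyte and platelet markers, which matter because platelets store thrombospondin 1 and osteonectin, summed to 77.4 and 64.2 (4 of 9 tested, 1 higher and 0 lower, a median of 0.18 and of 0.45 after the length subtraction, with Pf4 at 64.5 and 51.4, Ppbp at 1.54 and 2.24, Itga2b at 8.25 and 7.67, and Gp6 listed at 0 in both).

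The hepatocyte list was the one whose tested markers were all past 1.5-fold. The part of the cell mixture in the differences of the 10 genes was not tested.

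**Figure D5:**
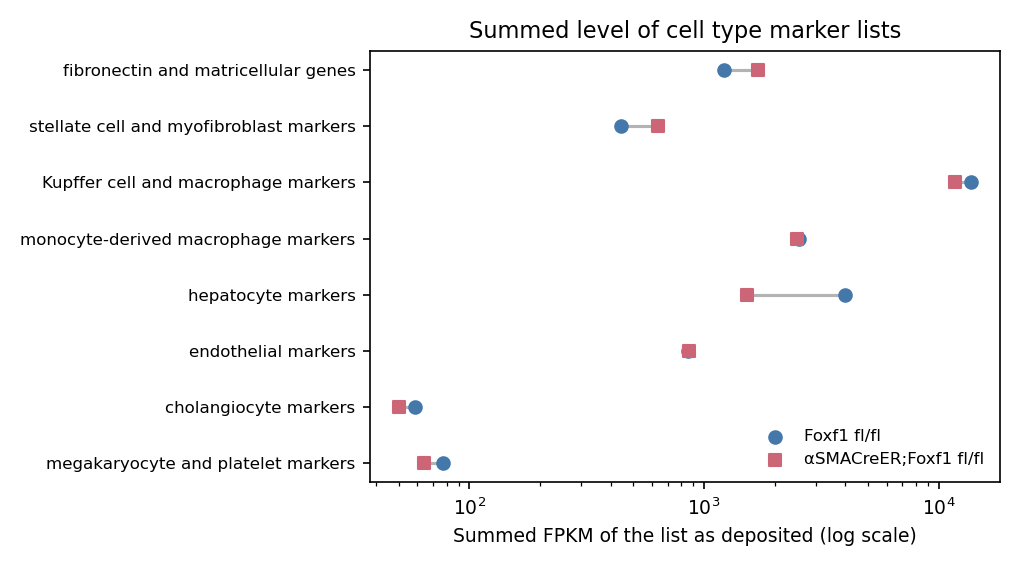
Summed FPKM (x axis, log scale, values as deposited) of the 10 genes and of 7 cell type marker lists (y axis) in the Foxf1 fl/fl library (circles) and the αSMACreER;Foxf1 fl/fl library (squares). Kupffer cell and macrophage markers have the highest sums, 13764 and 11798, and the stellate cell list goes from 441 to 634.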

How the data were processed

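RNA-seq of adherent hepatic stromal cells was analysed, with 1 pooled library per genotype (TruSeq kit, single-end reads of 75 bases). The authors aligned the reads with TopHat to mm10 and deposited Cufflinks FPKM values for 38320 Ensembl genes. They used DESeq with the RefSeq annotation for their own comparison, which was not repeated. The annotation of the FPKM files and the versions of these tools are not given in the sources used here. Symbols from GENCODE M21 (GRCm38) matched 36490 entries (95.2%), and coordinates are those of M21. For 4 of the 10 genes the interval in the file was identical to that of M21. A repeated symbol was represented by its most abundant entry, and 3 entries with a status other than OK were left out.

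Values were scaled by the median ratio over genes at an FPKM of 1 or more in control and in knockout, and 0.1 was added before log2. The 1.5-fold threshold came from the study's methods. FPKM values are not counts and there was 1 library per genotype, so no test was run and no p-value is given. Depth was estimated from the spacing of low values on genes with 1 transcript of at least 600 bases, with an assumed fragment length of 200 bases. Of 912 and 1067 low values, 51.6% and 52.8% were within 0.1 of a whole number of reads, which makes this a rough estimate. Exact binomial 95% intervals followed from it, with reads placed on the longest transcript, and cover counting error only. The procedure was also run on simulated reads, drawn with the same fragment and transcript lengths that it assumes. That run could not test these assumptions.

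The 10 genes and the lists (receptors, family relatives, other matricellular and adhesive glycoproteins, modifying enzymes, and 7 lists of cell type markers) were chosen with earlier results of these data known. Named were all 10 genes, each listed related gene past 1.5-fold and the first 3 genes of each marker list. Further receptors, relatives and markers, among them those listed at 0, were named after their values were seen. The hepatocyte gene Tf was not matched to an entry. Foxf1 was not analysed here. Alternatives changed the pseudocount, scaling, length adjustment, filter, fold threshold, assumed fragment length and handling of repeated symbols. Python 3.11.15 was used with matplotlib 3.10.9, scipy 1.17.1, pandas 2.3.3 and numpy 2.4.6.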

Additional observations from a re-analysis of the deposited data

How the results depend on the processing

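All 10 genes were higher in the knockout under every scaling, pseudocount and length setting run, with the smallest value at 0.03 for Sparcl1. The count at least 1.5-fold higher was 3, and it became 4 with upper-quartile scaling, with an equal FPKM sum over protein-coding genes and without a filter, 5 with scaling to an equal FPKM sum, 2 at 2-fold and 1 with a mean FPKM of at least 5, where only 5 genes were tested. The count of related genes at least 1.5-fold higher was 5 of 44. It became 3 with a pseudocount of 1, 9 with an equal FPKM sum, 8 with an equal sum over protein-coding genes, 3 with the longest-transcript adjustment, 10 without a filter, 2 when the mean FPKM had to reach 5, and 1 at 2-fold. The lower count was 3, and it became 7 with the longest-transcript adjustment and 6 without a filter. With an equal FPKM sum and at 2-fold it was 2, and with a mean FPKM of at least 5 it was 1. Groups by median transcript length left both counts unchanged, at 5 higher and 3 lower. Scaling to an equal sum moved the all-gene median to 0.20 (0.16 over protein-coding genes), and the calls over all genes went from 1624 higher and 1678 lower to 2690 and 1130 (70.4% higher instead of 49.2%; 2471 and 1197, 67.4%, over protein-coding genes). They were 3832 and 3225 without a filter, 685 and 943 above a mean FPKM of 5, and 552 and 788 at 2-fold. With pseudocount 1 they were 1083 and 1353, with the longest-transcript adjustment 1268 and 1411, and with groups by median transcript length 1576 and 1455. Assumed fragment lengths of 150 and 300 bases left the same 8 intervals above 0. Thbs1 ranged from 0.06 to 0.59. No paired analysis was possible because there was 1 library a genotype, and for the same reason no library could be left out. Depth limits Thbs2, Sparcl1 and Tnc, with about 13 to 186 reads each.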
